A study of Homo sapiens with 15 samples.

Results

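The genes of androgen synthesis and activation are described here in C4-2B, a castration-resistant prostate adenocarcinoma cell line derived from LNCaP. The 10 genes were chosen by name from the steroid pathway, by a rule that uses no measured value, and all 10 were found among the 58302 genes listed in each count table. They are STAR, CYP11A1, CYP17A1, HSD3B1, HSD3B2, HSD17B3, AKR1C3, SRD5A1, SRD5A2 and SRD5A3. Libraries are labelled for 15 samples in 5 groups of 3, namely C4-2B, and the neuroendocrine-like lines DKD and ER with either a scrambled control (scr) or siPax5. The values below come from the 3 libraries of C4-2B, and DKD and ER were not analysed here, so they give the level of each gene in a single cell line and no comparison between conditions was made. Per the study's methods, the cells grew in RPMI with fetal bovine serum, whose steroids were not measured here.

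Androgens are built from cholesterol. STAR carries cholesterol to the inner mitochondrial membrane, where CYP11A1 cleaves its side chain to give pregnenolone, and CYP17A1 then turns pregnenolone or progesterone into the androgen precursors DHEA and androstenedione. HSD3B enzymes convert DHEA to androstenedione, HSD17B3 and AKR1C3 reduce androstenedione to testosterone, and the steroid 5-alpha-reductases (SRD5A) convert testosterone to dihydrotestosterone, the more potent androgen. The early steps are known from the adrenal cortex and the gonads, while the normal prostate is known for SRD5A2, and the tumour for the use of adrenal precursors through SRD5A1. SRD5A3 also reduces polyprenol in the synthesis of dolichol, which is needed for protein N-glycosylation.

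The 3 libraries held 44992971, 49569026 and 46232076 counts. Levels are given in TPM, in which the count of a gene is divided by its exon length and scaled to the sum over all genes of the library, so that genes of different length can be set side by side. The luminal markers of prostate adenocarcinoma were all 7 present at 1 TPM or more in every library, between 197 TPM for KRT8 and 1988 TPM for KLK3. Of the 4 neuroendocrine markers 3 reached that level, led by ENO2 at 42.9 TPM, with CHGA at 1.38 TPM and SYP at 1.31 TPM. Of the 3 basal markers none did, and TP63 had 0 counts. Of the 4 fibroblast and smooth muscle markers COL1A1 did, at 7.09 TPM, while COL1A2 and DCN had 0 counts. None of the 4 markers of adrenal cortex and Leydig cells reached 1 TPM, and MC2R and INSL3 had 0 counts.

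RefSeq promoter windows, from 250 bases before to 50 bases after each annotated start, were available for 9 of the 10 genes. The windows of the 3 most abundant genes and of SRD5A2, the isozyme without a count, are shown with their CpG dinucleotides in capitals. Those of the 3 SRD5A genes hold many of them and that of CYP11A1 holds few. In GRCh38.p14 they lie at chr5:6633190-6633489 on the plus strand (SRD5A1), chr4:55345992-55346291 on the plus strand (SRD5A3), chr2:31580889-31581188 on the minus strand (SRD5A2) and chr15:74367597-74367896 on the minus strand (CYP11A1), and each is written 5′ to 3′ on its own strand.
SRD5A1: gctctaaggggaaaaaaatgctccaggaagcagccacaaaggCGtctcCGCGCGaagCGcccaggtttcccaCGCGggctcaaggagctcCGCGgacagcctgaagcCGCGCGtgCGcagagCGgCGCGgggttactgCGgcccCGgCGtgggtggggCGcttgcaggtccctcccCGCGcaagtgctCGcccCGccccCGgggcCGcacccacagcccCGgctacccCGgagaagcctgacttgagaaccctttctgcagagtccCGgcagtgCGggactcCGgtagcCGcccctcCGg
SRD5A3: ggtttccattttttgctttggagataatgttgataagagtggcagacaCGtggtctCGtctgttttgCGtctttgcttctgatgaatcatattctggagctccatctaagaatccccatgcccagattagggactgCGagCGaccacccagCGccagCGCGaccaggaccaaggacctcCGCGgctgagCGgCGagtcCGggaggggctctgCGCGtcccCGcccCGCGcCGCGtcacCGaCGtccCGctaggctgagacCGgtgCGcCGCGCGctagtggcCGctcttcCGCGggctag
SRD5A2: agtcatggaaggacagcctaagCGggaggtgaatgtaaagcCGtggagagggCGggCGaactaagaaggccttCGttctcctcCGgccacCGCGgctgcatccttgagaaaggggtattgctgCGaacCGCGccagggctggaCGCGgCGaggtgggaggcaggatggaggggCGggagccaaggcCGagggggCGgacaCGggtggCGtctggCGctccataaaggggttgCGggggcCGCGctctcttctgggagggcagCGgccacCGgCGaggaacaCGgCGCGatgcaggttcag
CYP11A1: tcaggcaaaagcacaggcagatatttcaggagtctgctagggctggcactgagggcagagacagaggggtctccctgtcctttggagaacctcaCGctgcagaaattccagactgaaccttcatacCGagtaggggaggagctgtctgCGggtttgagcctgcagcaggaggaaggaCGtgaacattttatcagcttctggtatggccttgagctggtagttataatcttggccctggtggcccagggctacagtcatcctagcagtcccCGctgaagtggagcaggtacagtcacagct

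Transcripts of the pathway were mostly those of CYP11A1 and of SRD5A1 and SRD5A3. SRD5A3 stood at 26.2 ± 0.970 TPM, SRD5A1 at 19.2 ± 1.28 TPM and CYP11A1 at 7.78 ± 0.356 TPM (mean ± SD, n = 3 libraries), whereas STAR, HSD3B1, AKR1C3 and CYP17A1 were each below 0.6 TPM in every library. HSD3B2, HSD17B3 and SRD5A2 had 0 counts in all 3 libraries. At the level of 1 TPM or more in all 3 libraries, 3 of the 10 genes (30%) were expressed, beside 32.8% of all listed genes and 61.2% of protein-coding genes. The median of the 10 genes was 0.200 TPM, beside 0.171 TPM over all listed genes and 5.88 TPM over protein-coding genes. Per library, the 10 genes summed to 54.7, 52.1 and 55.5 TPM. SRD5A1 and SRD5A3 together made 83.9% ± 0.282 of that sum and CYP11A1 made 14.4% ± 0.318. The other 7 genes made 1.72% ± 0.154 and together held 143 of 13276 counts. These shares depend on the gene length used. With the MANE Select transcript length put in for the 10 genes only, CYP11A1 was at 14.8 TPM of a mean sum of 66.0 TPM. For this, each gene kept all its counts and the scaling sum kept the deposited lengths, so these values are not full TPM. Over bases outside exons of other genes it was at 10.4 TPM of 55.8 TPM.

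**Figure D1:**
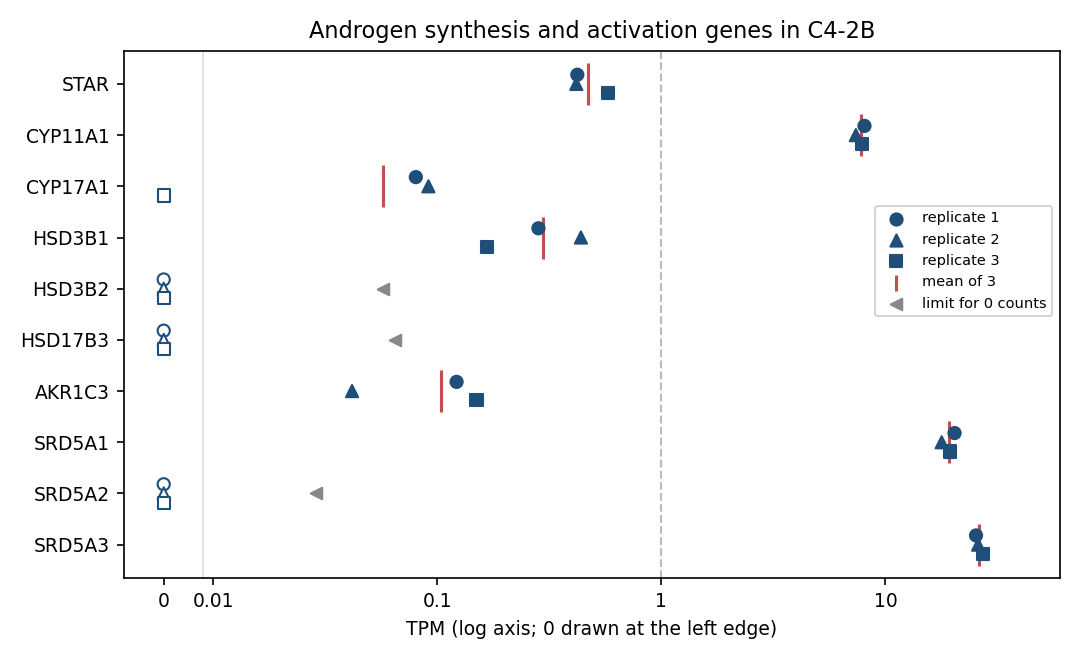
TPM of each gene (log axis) in the 3 C4-2B libraries, in pathway order; symbols are single libraries, red bars are means of 3, open symbols are 0 counts and grey triangles the upper limit of TPM for a gene with 0 counts. CYP11A1, SRD5A1 and SRD5A3 lie above the dashed line at 1 TPM in every library, and the other 7 genes lie below it.

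Delivery of cholesterol and its cleavage opened the pathway with unlike levels. STAR (ENSG00000147465, chromosome 8, 38143649 to 38151265, minus strand) had 23, 25 and 32 counts, or 0.421, 0.417 and 0.575 TPM, with a mean of 0.471 ± 0.0901 TPM. The 3 values lay close together and all below 1 TPM. The exons of STAR share 338 bases (8.97%) with those of ASH2L on the opposite strand, a gene at 29.3 TPM, and 14 bases with a second gene. Counting did not use the strand, so unspliced reads of ASH2L and reads of STAR cannot be told apart near that end, and their part in the level of STAR was not tested. CYP11A1 (ENSG00000140459, chromosome 15, 74337759 to 74367740, minus strand, 13 exon blocks) had 408, 410 and 407 counts, or 8.06, 7.38 and 7.89 TPM. Its interval from counting error ran from 7.17 to 8.42 TPM (exact Poisson, 95%), and 52.9% of protein-coding genes were lower. CYP11A1 exceeded STAR by 16.9-fold ± 2.81, and in no library by less than 13.7-fold. Of the exons of CYP11A1, 29.0% overlap genes on the opposite strand, where reads were given to neither gene, and over the remaining 2480 bases its level was 10.4 ± 0.479 TPM. Those opposite genes were low, PPIAP46 with 19 counts in all and a long non-coding RNA with 0 counts.

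The pathway genes around these first steps were mostly expressed. Of the 6 other cholesterol carriers and their partners, 5 passed 1 TPM in every library: TSPO, the translocator protein of the outer mitochondrial membrane, at 201 ± 5.66 TPM, ACBD3 at 63.0 TPM, the STAR-related carriers STARD3 and STARD4 at 24.2 and 14.1 TPM, and STARD5 at 1.89 TPM. For STARD5, 68.6% of the exon bases overlap other genes, which leaves its level uncertain. STARD6 was at 0.203 TPM. All 5 electron donors and cytochromes b5 that serve the steroidogenic P450 enzymes passed as well. FDX1 and FDXR, which pass electrons to mitochondrial enzymes such as CYP11A1, stood at 32.2 and 24.4 TPM. POR, the donor of CYP17A1, stood at 37.2 TPM, and CYB5A, known to favour the lyase reaction of CYP17A1, at 64.1 ± 1.86 TPM, which was 1.72-fold ± 0.0518 the level of POR.

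CYP17A1 itself (ENSG00000148795, chromosome 10, 102830531 to 102837533, minus strand) had 4, 5 and 0 counts, or 0.0801, 0.0912 and 0 TPM. Its mean of 0.0571 ± 0.0498 TPM rose to 0.0856 TPM without replicate 3, the library with no count. The interval of its 9 counts ran from 0.0171 to 0.139 TPM, so that at this depth its level was bounded well below 1 TPM. Other steroidogenic P450 enzymes were as low, with 0 of 4 at 1 TPM. Aromatase (CYP19A1) and the adrenal enzymes CYP11B1 and CYP11B2 had 0 counts, and CYP21A2 had 3, 9 and 0 counts, which are uncertain because a near-identical pseudogene copy exists.

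Of the 3-beta-hydroxysteroid dehydrogenases, HSD3B1 was seen and HSD3B2 was not. HSD3B1 (ENSG00000203857, chromosome 1, 119507198 to 119515054, plus strand), the form known from peripheral tissues, had 10, 17 and 6 counts, or 0.282, 0.437 and 0.166 TPM, with a mean of 0.295 ± 0.136 TPM. HSD3B2 (ENSG00000203859, chromosome 1, 119414931 to 119423035, plus strand), the adrenal and gonadal form, had 0 counts, which allows up to 0.0569 TPM when 3 read pairs over the 3 libraries, or 6 counts since each mate was counted, are taken as the limit. The mean of HSD3B1 was 5.19 times that limit, and its own counting interval began at 0.170 TPM, above it. Both genes and 5 pseudogenes of the family lie together on chromosome 1, and 7.12% of 50-base stretches of HSD3B1 and 5.55% of those of HSD3B2 occur a further time in the genome, so their few counts are uncertain. The transcribed pseudogene HSD3BP5, with 17, 37 and 32 counts, was at 1.67 ± 0.551 TPM, above HSD3B1 in every library. HSD3B7, a relative that acts on bile acid precursors, was at 17.5 ± 0.982 TPM, but 64.6% of its exon bases overlap other genes, which leaves that level uncertain.

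The enzymes that reduce androstenedione to testosterone were near or at 0. HSD17B3 (ENSG00000130948, chromosome 9, 96235306 to 96302152, minus strand), the testicular enzyme, had 0 counts, which allows up to 0.0647 TPM on the same limit. The antisense gene HSD17B3-AS1, which shares 14.6% of the exon bases of HSD17B3, had 1 count. AKR1C3 (ENSG00000196139, chromosome 10, 5035354 to 5107686, plus strand), an aldo-keto reductase known for this step in prostate tumours, had 8, 3 and 10 counts, or 0.122, 0.0416 and 0.149 TPM, with a mean of 0.104 ± 0.0560 TPM. Its counting interval, from 0.0510 to 0.189 TPM, overlapped the limit of HSD17B3, so that a difference between both genes was not detectable at this depth. The exon length of AKR1C3 in the deposited tables, 4532 bases, is much longer than its MANE Select transcript of 1186 bases. Dividing all its counts by that transcript length gave 0.398 ± 0.214 TPM, still below 1 TPM in every library. The paralogs AKR1C1, AKR1C2 and AKR1C4 had 3, 19 and 0 counts in all. The 7 relatives of AKR1C3 together held 24 counts. Of the 50-base stretches of AKR1C3, 4.99% occur a further time in the genome. Reads with several alignments were not counted, and any loss of AKR1C3 reads in this way was not tested.

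Other genes of the HSD17B family were abundant, although several are known for lipid rather than androgen metabolism. Of 11 family genes, 9 passed 1 TPM in every library, led by HSD17B10, a mitochondrial enzyme, at 243 ± 13.2 TPM. HSD17B4, a peroxisomal enzyme that also oxidises estradiol, stood at 78.3 TPM, HSD17B8 at 69.1 TPM, HSD17B12 and HSD17B11 both at 11.1 TPM, and HSD17B7 at 7.67 TPM. HSD17B1, which reduces estrone to estradiol, had 7.88, 6.63 and 7.53 TPM, with 34.8% of its exon bases overlapping other genes. HSD17B14 was at 2.56 TPM. HSD17B2, which oxidises testosterone, was at 0.0525 TPM, and HSD17B13 at 0.0730 TPM. HSD17B6 and RDH16, which can oxidise androstanediol back to dihydrotestosterone, stood at 4.13 ± 0.820 and 3.71 ± 0.352 TPM. Their ratio, 1.11 ± 0.182, crossed 1 among the libraries, with values from 0.903 to 1.23. RDH5 was at 1.30 TPM, but 68.2% of its exon bases overlap other genes, which leaves that level uncertain. DHRS9 was at 0.176 TPM.

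The 5-alpha-reductases included the most abundant gene of the 10, SRD5A3, and a gene with no counts, SRD5A2. SRD5A3 (ENSG00000128039, chromosome 4, 55346109 to 55373096, plus strand, 6 exon blocks) had 1626, 1824 and 1780 counts, or 25.4, 25.9 and 27.3 TPM. Its counting interval ran from 25.2 to 27.2 TPM, and 72.9% of protein-coding genes were lower. SRD5A1 (ENSG00000145545, chromosome 5, 6633343 to 6674386, plus strand, 7 exon blocks) had 2276, 2189 and 2213 counts, or 20.4, 17.8 and 19.4 TPM, with an interval from 18.6 to 19.9 TPM and 66.5% of protein-coding genes lower. SRD5A1 had the more counts of the pair and the lower level per base, since its exons cover 7715 bases against 4420 for SRD5A3. The TPM ratio of SRD5A3 to SRD5A1 was 1.25, 1.45 and 1.40 in the libraries, a mean log2 ratio of 0.45 ± 0.12, while on CPM, counts scaled to the library total with no account of length, the log2 ratio was -0.35. All 3 libraries gave the same direction, although a two-sided exact sign-flip test over 3 libraries cannot go below p = 0.25. SRD5A2 (ENSG00000277893, chromosome 2, 31522480 to 31581067, minus strand) had 0 counts, which allows up to 0.0286 TPM, and the mean of SRD5A1 was 671 times that limit. None of the 50-base stretches of SRD5A2 occurs elsewhere in the genome. The processed pseudogenes SRD5A1P1, SRD5A2P1 and SRD5A3P1 had 0 counts, and the antisense gene SRD5A3-AS1, which shares 4.48% of the exon bases of SRD5A3, was at 1.32 ± 0.160 TPM. TECR, a reductase of fatty acid elongation that shares the fold of these enzymes, was at 44.0 ± 1.07 TPM, and TECRL had 0 counts.

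Ranked by mean level, the order was SRD5A3, SRD5A1, CYP11A1, STAR, HSD3B1, AKR1C3 and CYP17A1, followed by the 3 genes without counts. Down to STAR, neither the library ranges nor the counting intervals of neighbours overlapped, and the order was the same in 3 of 3 libraries. SRD5A3 was 3.37-fold ± 0.196 and SRD5A1 2.47-fold ± 0.0545 the level of CYP11A1. These folds depend on the length used for CYP11A1. They were 2.51 and 1.75 outside exons of other genes. With all counts of each gene divided by its MANE Select transcript length they were 1.93 and 1.42, and CYP11A1 was at 14.8 ± 0.677 TPM. Counts outside that transcript were not removed for this. The order was the same in 3 of 3 libraries at each length. STAR and HSD3B1 did not differ beyond their spread, since their ranges overlapped and STAR was higher in 2 of 3 libraries. HSD3B1 was above AKR1C3 in 3 of 3 libraries, but their counting intervals overlapped, and on MANE Select transcript length HSD3B1 was the higher in 1 of 3 libraries, so that no order between them can be given. AKR1C3 and CYP17A1 overlapped in both, as did CYP17A1 and the genes without counts. No order can be given among HSD3B2, HSD17B3 and SRD5A2, which were among the 2481 protein-coding genes (12.6%) with 0 counts.

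**Figure D2:**
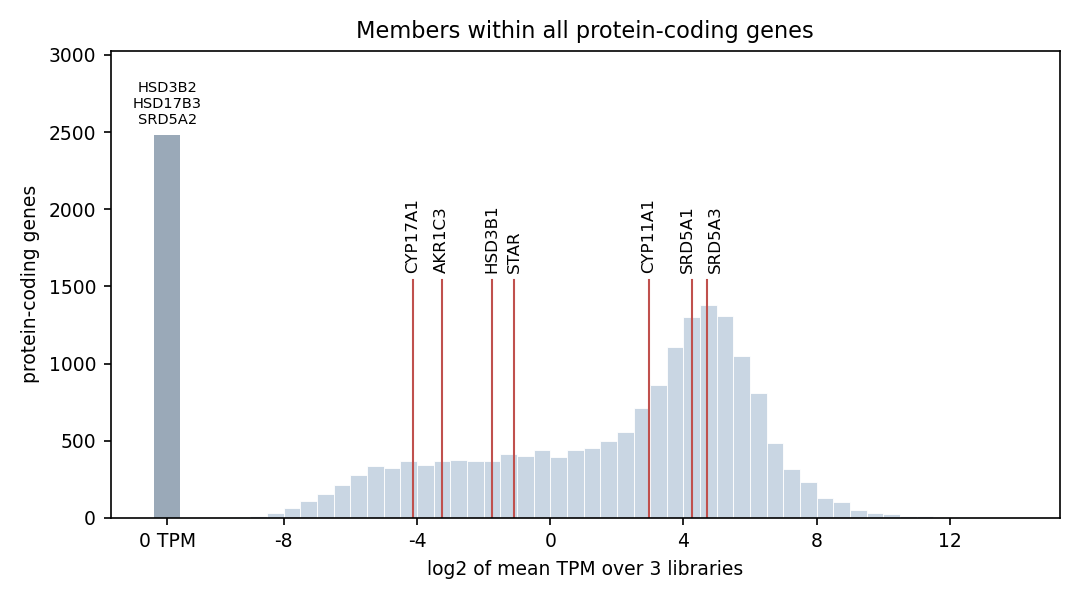
Number of protein-coding genes (bars) by log2 of the mean TPM over 3 libraries, with the 7 genes that had counts as red lines and genes with 0 counts as the separate bar on the left. SRD5A3 and SRD5A1 lie at the peak of the distribution with 72.9% and 66.5% of genes below them, CYP11A1 lies near its middle, and HSD3B2, HSD17B3 and SRD5A2 are among the 2481 genes without counts.

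Variation between the 3 libraries was compared with counting error by a chi-square test of each gene's counts, a test that compares libraries and not conditions. Of the 10 genes, 5 had the 30 counts needed, and 0 of these passed an adjusted p of 0.05 (Benjamini-Hochberg over 22229 genes), beside 0.792% of all tested genes. At an unadjusted p under 0.05 the count was 1 of 5, beside 11.3% of all tested genes. That gene was SRD5A1, highest in replicate 1 and lowest in replicate 2, with a chi-square p of 0.00496 that was 0.189 after adjustment over all genes. With DESeq2 size factors the chi-square p of SRD5A1 was 0.00586, or 0.206 after adjustment, and 0 genes of the 10 passed the adjusted threshold. CYP11A1, with 408, 410 and 407 counts, had an adjusted chi-square p of 0.901, and SRD5A3 of 0.810. STAR and HSD3B1 had adjusted chi-square p of 0.901 and 0.756, with few counts behind them.

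Genes beside these steps that supply or remove androgens or interconvert glucocorticoids ranged from 0 counts to 44.1 TPM. Of 6 genes of the sulfation cycle 3 passed 1 TPM in every library. STS, which frees DHEA from its sulfate, was at 11.4 ± 0.327 TPM, PAPSS1, which makes the sulfate donor, at 37.8 TPM, and SULT2B1 at 5.78 TPM. PAPSS2 fell short in replicate 1, with 0.760, 1.20 and 1.46 TPM. The DHEA sulfotransferase SULT2A1 had 0 counts and SULT1E1 1 count. The 5 carriers for uptake of steroids and their sulfates were all low, none above 0.0279 TPM on average. In the interconversion of glucocorticoids, HSD11B2, which inactivates cortisol, was at 38.4 TPM and H6PD, which supplies NADPH to HSD11B1, at 44.1 TPM, while HSD11B1 was at 0.0754 TPM. All 3 genes of androgen glucuronidation passed, UGT2B15 at 8.63 TPM, UGT2B28 at 5.18 TPM and UGT2B17 at 3.17 TPM. They are paralogs, and since reads with several alignments were not counted, their levels are uncertain. How much sequence they share was not measured here. AKR1D1, a 5-beta-reductase that inactivates steroids, had 0.736, 0.548 and 1.25 TPM.

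Of 6 transcription factors of steroidogenic tissue, 1 passed 1 TPM in every library, GATA6 at 6.83 TPM. NR5A1 (SF-1), the factor known to drive steroidogenic genes in the adrenal and gonads, had 0, 0 and 2 counts, NR5A2 was at 0.125 TPM, and NR0B1, NR0B2 and GATA4 were each at 0.0756 TPM or less. Counted together, 31 of the 58 other pathway genes passed 1 TPM in every library, beside 61.2% of protein-coding genes. Of the 58, 6 had 0 counts, beside 12.6% of protein-coding genes. By the chi-square test, 0 of the 35 that could be tested differed between libraries, beside 0.792% of all tested genes.

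**Figure D3:**
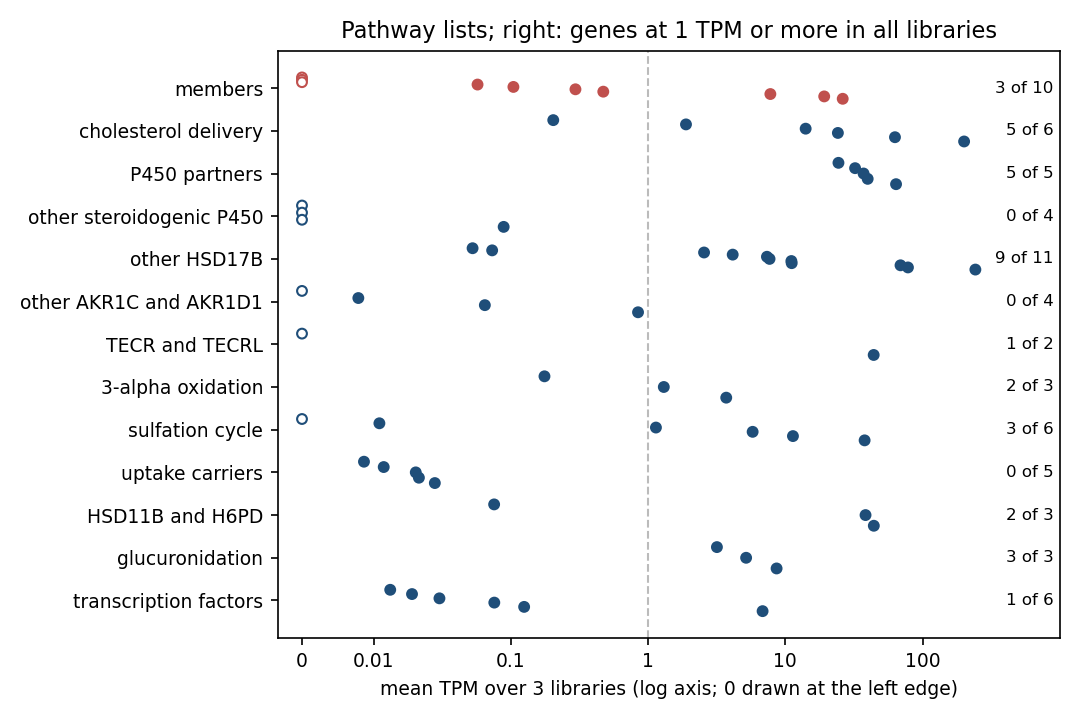
Mean TPM over 3 libraries (log axis) of each gene of the pathway lists, one row a list, with the 10 genes described here in red, genes with 0 counts as open symbols and, at the right, how many genes of the list reached 1 TPM in all libraries. All 5 P450 partners and all 3 glucuronidation genes lie above the dashed line at 1 TPM, and none of the 5 uptake carriers does.

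Of the promoter windows printed above, those of the 3 SRD5A genes were rich in CpG and that of CYP11A1 was not. SRD5A1 held 33 CpG dinucleotides, SRD5A3 31 and SRD5A2 29, against a median of 14 over 35116 windows of the same length, and 82.8%, 79.3% and 75.8% of windows held fewer. CYP11A1 held 5, CYP17A1 and HSD17B3 3 each, HSD3B1 and HSD3B2 1 each, and AKR1C3 none in either of its windows. SRD5A2 therefore had a CpG-rich window like the other SRD5A genes and no counts, whereas CYP11A1 had few CpG dinucleotides and 7.78 TPM. On either strand, the TATA box letters TATAAA were found in the HSD17B3 window and in 1 of the AKR1C3 windows, beside 11.5% of all windows. The letters TCAAGGTCA, a site of SF-1, were in none of the 11 windows, beside 0.353% of all windows. Neither motif contains the other, and a match is a description of the sequence only. RefSeq starts can differ from the gene starts of the deposited tables, as for SRD5A1, so some windows reach further into the gene than others. For AKR1C3 the deposited gene starts at 5035354 and the RefSeq starts lie at 5048781 and 5094414, so neither window lies at the deposited start.

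**Figure D4:**
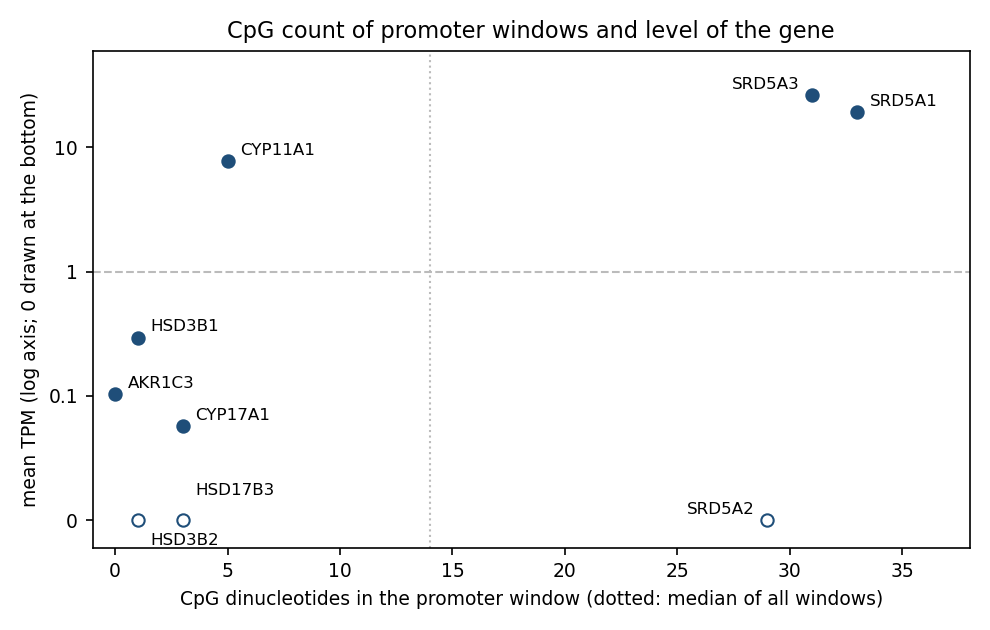
Mean TPM (log axis) of the 9 genes with a RefSeq window against the number of CpG dinucleotides in it; open symbols are 0 counts, the dashed line is 1 TPM and the dotted line the median of 14 CpG over all windows. The 3 SRD5A genes lie at 29 to 33 CpG and differ in level from 0 to 26.2 TPM, and the other 6 genes lie at 5 CpG or fewer.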

How the data were processed

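Total RNA of C4-2B cells was depleted of ribosomal RNA, made into directional libraries and read from both ends. The authors aligned reads to GRCh38 with STAR 2.7.0f and deposited raw gene counts (featureCounts 1.6.3, Ensembl release 90), together with gene length, another value of the deposited tables. Per the file headers, strand was not used and each mate of a pair counted by itself. By the defaults of the tool, reads with several alignments or over exons of more than 1 gene were not counted. Replicates are labelled by number; nothing says that they came from separate cultures, so their spread may be technical.

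Symbols were matched by Ensembl identifier for 41836 of 58302 genes and gene types came from GENCODE release 44. TPM was computed from counts and deposited length. Exact Poisson intervals (95%) were taken on counts divided by 2, because mates are not independent, and cover counting error only. The limit for a gene with 0 counts was 3 read pairs over the libraries, or 6 counts, a choice made after seeing the data. The chi-square test (2 degrees of freedom, divided by 2) used TMM library sizes from edgeR 4.0.16, genes with 30 counts or more, and Benjamini-Hochberg adjustment, with DESeq2 1.42.0 size factors as an alternative. It was tested on simulated data. Other alternatives were the TPM denominator, gene length (including the MANE Select transcript, chosen after seeing the data), thresholds and leaving out each replicate. The MANE Select length replaced the deposited length of the 10 genes only, with all their counts and the scaling sum kept. Promoter windows came from RefSeq (GRCh38.p14). Named genes are the 10 genes, relatives by symbol, and fixed pathway and marker lists, by value where at 1 TPM or more or a relative, and others by count or chosen after their values were seen. The 10 genes and the lists were named with earlier results of these data known, although no measured value enters the rule that defines the 10. Protein alignments were not run. A gene of the lists and a promoter motif are not reported here, and the list counts leave the gene out.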

Additional observations from a re-analysis of the deposited data

How the results depend on the processing

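The number of genes at 1 TPM or more stayed at 3 under every TPM denominator, exon length, CPM, thresholds of 0.5 and 2 TPM, and without each replicate. The summed level of 54.1 TPM was 75.4 TPM over protein-coding genes only and 78.3 TPM without the 10 most abundant and the mitochondrial genes. On the CPM scale it was 94.4, and these shifts follow by construction of those scales. With MANE Select transcript length for the 10 genes and the scaling sum unchanged, it was 66.0 TPM. Without single replicates it was 53.4 to 55.1 TPM. The log2 ratio of SRD5A3 to SRD5A1 reversed to -0.35 with CPM, which takes no account of length. The ratio of SRD5A1 to the limit of SRD5A2 was 1114 with CPM and 442 to 451 without single replicates. That of AKR1C3 to the limit of HSD17B3 was 1.61, 3.55 with CPM and 0.849 to 1.36 without single replicates, and that of HSD3B1 to the limit of HSD3B2 was 2.56 to 4.25 without single replicates, lowest without replicate 2, which has the most HSD3B1 counts. The limit itself rises when fewer libraries are used. Genes differing between libraries numbered 176, and 3835 when the chi-square was not divided by 2, when SRD5A1 (adjusted p 0.000938) made 1 of the 10 genes. The adjusted p of SRD5A1 otherwise lay between 0.183 and 0.665. The count was 38 without replicate 1, 223 without replicate 2 and 44 without replicate 3. No paired analysis was possible because count tables of 1 group were analysed. Intervals limit what can be said of STAR, HSD3B1, AKR1C3 and CYP17A1, which rest on 9 to 80 counts.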

Other observations

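The genomic neighbours of the 10 genes were examined for levels not described above, taking the nearest protein-coding gene on each side. All 3 expressed genes had a neighbour at 1 TPM or more in every library, with 4 of 6 neighbours at that level, and 5 of the other 7 genes had one, with 8 of 14 neighbours, beside 61.2% of all protein-coding genes at that level. SRD5A1 starts 51 bases from NSUN2, an RNA methyltransferase gene on the opposite strand, which was at 91.0 ± 0.888 TPM. The neighbours of HSD17B3, which had 0 counts, were ERCC6L2 at 10.7 TPM and SLC35D2 at 16.1 TPM, and those of CYP17A1 were WBP1L at 36.0 TPM and BORCS7 at 10.4 TPM. AKR1C3 lay between AKR1C2 and AKR1C8, both below 0.1 TPM. No difference between the expressed and the other genes was tested, and these neighbours were named after their values were seen.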
